A study of Mus musculus with 20 samples.

Results

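A set of 40 genes, the fibrillar collagens and the genes of the stromal matrix around them, was followed across 20 spontaneous breast tumors. They were taken by gene name from a fixed list, and all 40 were found among the 43346 genes of the count table. All 40 also passed a filter on low counts that kept 18883 genes. RNAseq was done on 1 tumor from each of 20 mice, which the labels divide into 9 Lo and 11 Hi tumors without saying what Lo and Hi stand for. All mice were female [BALB/c-neuT x FVB/J] F1 progeny up to 20 weeks of age, from neuT-positive BALB/c males and wildtype FVB/J females, so that Lo and Hi tumors share strain, sex and a hemizygous transgene for the activated rat Her2/neu oncogene under the mouse mammary tumor virus promoter. No normal mammary gland was analysed here, and each tumor was sampled as 1 small frozen piece of bulk tissue. A lower value can therefore mean fewer cells expressing the gene, stromal or other, or less RNA per cell, which cannot be told apart.

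The fibrillar collagens are the main load-bearing proteins of connective tissue. Their chains wind into triple helices that are trimmed outside the cell, assemble into fibrils and are cross-linked by lysyl oxidases, while proteoglycans, elastic fibres and matricellular proteins organize the fibrils and carry signals to cells. In breast carcinomas most of this matrix is laid down by fibroblasts, and collagen-rich stroma is a well-known feature of these tumors. The list is wider than its first words. It holds 7 fibrillar collagen genes, 3 collagen VI chains and 6 further collagens of other kinds, 5 proteoglycans, Fn1, 6 elastic fibre genes, 6 matricellular genes, 3 lysyl oxidases and 3 stromal cell surface genes.

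The coding sequences show what sets the fibrillar collagens apart. In the GENCODE M21 transcript with the longest coding sequence, the 7 fibrillar collagens held an unbroken run of 337 to 344 Gly-X-Y triplets, in which glycine, the only residue small enough for the core of the helix, leads each triplet. They also held 21 to 31 coding exons of exactly 54 bases. The longest such run was 87 triplets in Col6a1 and Col6a2, 61 in Col8a1, 52 in Col16a1 and 32 in Col12a1 and Col14a1, whose helices are short or interrupted, and 17 in Eln, the longest outside the collagens. A 54-base exon of each of 4 fibrillar collagens is given here because the results turn on how these genes, alike in structure, differed in expression. The positions are mm10 (GRCm38), all on the plus strand, and capitals mark glycine codons: exon 8 of Col1a1 at chr11:94939904-94939957, exon 8 of Col1a2 at chr6:4515481-4515534, exon 6 of Col3a1 at chr1:45325360-45325413 and exon 15 of Col11a1 at chr3:114108281-114108334.
Col1a1: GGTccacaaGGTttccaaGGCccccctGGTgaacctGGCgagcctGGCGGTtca
Col1a2: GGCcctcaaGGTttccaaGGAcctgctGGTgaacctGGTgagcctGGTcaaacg
Col3a1: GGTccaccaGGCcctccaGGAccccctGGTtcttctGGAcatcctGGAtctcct
Col11a1: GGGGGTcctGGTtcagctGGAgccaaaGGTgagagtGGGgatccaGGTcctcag
Each exon was taken from inside the unbroken run of its gene, so its 6 glycine codons in the regular position follow from that choice. The runs themselves were of like length, at 338 triplets in Col11a1, 338 in Col1a1, 339 in Col1a2 and 344 in Col3a1.

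Total counts ranged between 38765682 and 65465755 in the tumors, and a count of 0 would allow up to 3 counts in such a total. Reads carry no molecular identifiers, and these limits cover counting error only. The ribosomal RNA locus took 6.29% to 27.7% of the counts. The 40 genes together took 0.431% in tumor Lo 3 to 0.779% in tumor Lo 4, with a mean of 0.560% ± 0.102 (SD, n = 9) in Lo and 0.616% ± 0.0718 (SD, n = 11) in Hi tumors. Krt8, Krt18 and Epcam, markers of luminal epithelium, stood at 505 to 1334 CPM in every tumor. They were the highest of 8 listed luminal markers. Cdh1 (272 to 379 CPM), Cldn3 (194 to 378 CPM) and Cldn4 (54.9 to 146 CPM) were lower. Krt19 (9.45 to 52.7 CPM) and Elf3 (8.80 to 21.5 CPM) were the lowest. Skeletal muscle RNA was present in some pieces. The summed level of 8 muscle genes was 939 CPM in Hi 6, 545 CPM in Lo 4 and 330.3 CPM in Hi 1, was 55.0 to 154 CPM in 6 further tumors and was 1.57 to 5.35 CPM in the remaining 11. Its part in the results was not tested. Values without Hi 6 and Lo 4 are given for the median r with the fibrillar collagens, the counts of relations passed and the Lo against Hi fits. The levels, spread, single r values and ratios below include both tumors, except where a setting that leaves out tumors is named.

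**Figure D1:**
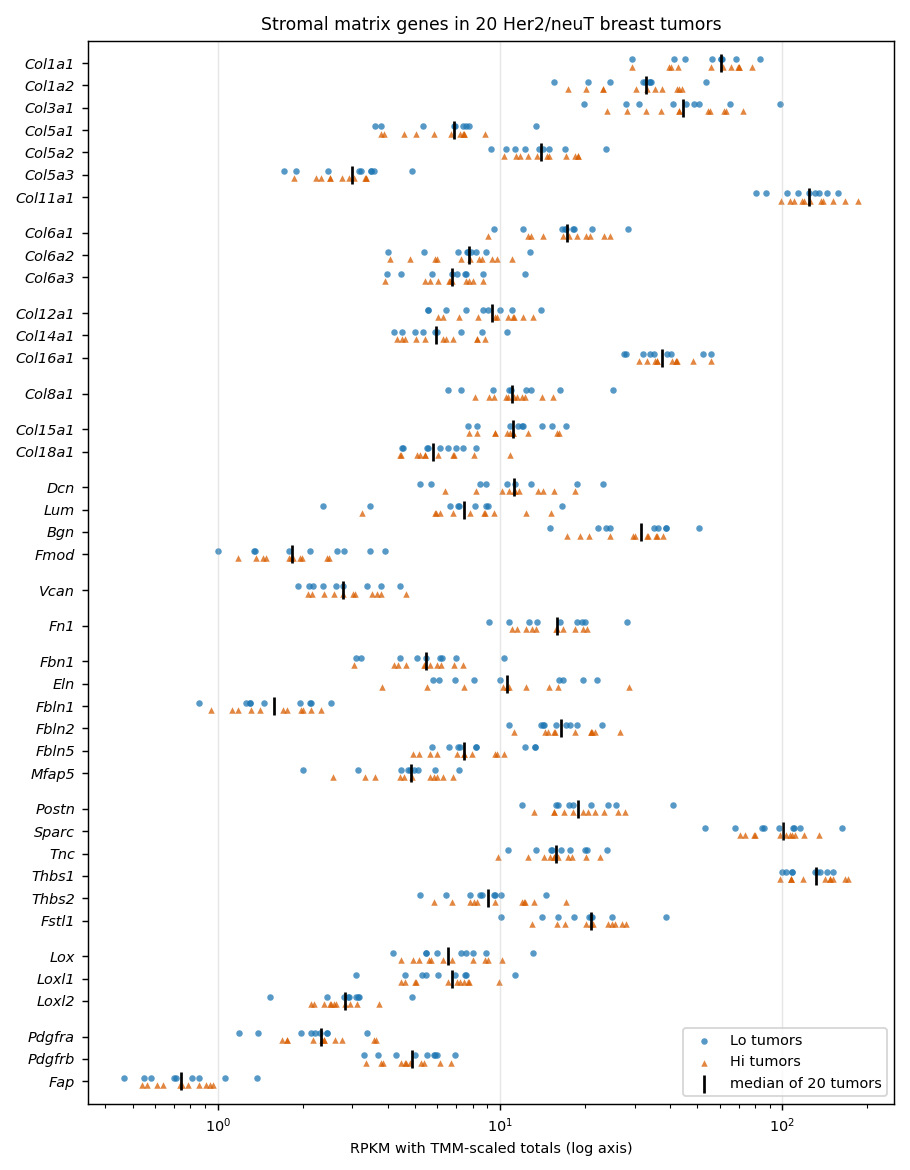
Level of each of the 40 stromal matrix genes (rows, grouped by role) in 20 tumors, as RPKM with TMM-scaled totals on a log axis. Circles are Lo tumors, triangles Hi tumors and bars the median of 20 tumors. Thbs1, Col11a1 and Sparc have the highest medians (132, 125 and 100.4 RPKM) and Fap the lowest (0.742 RPKM). Lo and Hi tumors overlap in every row, for which no share over all genes was taken.

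How much of each matrix gene did these tumors contain? Levels between genes are given as RPKM, the count scaled to the gene's listed length and to a library total that was itself scaled by TMM. Among the fibrillar collagens Col11a1, a chain of type XI collagen that is best known from cartilage and from the stroma of invasive carcinomas, had the highest median at 125 RPKM (80.3 to 185). Col1a1, the alpha 1 chain of type I collagen, the bulk collagen of most stroma, followed at 60.5 RPKM (29.3 to 83.3). Col3a1, the single chain of type III collagen, stood at 44.4 RPKM (19.9 to 98.2), and Col1a2, the partner chain of Col1a1, at 32.9 RPKM (15.6 to 53.6). The ranges of these last 3 overlapped, and the lowest value of Col11a1 lay above the highest of Col1a2. The order of these 3 rests on the listed lengths of 6563 bases for Col1a1, 9816 for Col3a1 and 12136 for Col1a2. Without scaling to length, their medians were 397 CPM for Col1a1, 435 CPM for Col3a1 and 399 CPM for Col1a2. The type V chains, which type I fibrils contain in small amounts and which govern their diameter, were lower, with medians of 13.96 RPKM for Col5a2, 6.88 RPKM for Col5a1 and 2.98 RPKM for Col5a3.

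Outside the fibrillar collagens 2 matricellular genes dominated. Thbs1, thrombospondin 1, which restrains angiogenesis and activates latent TGF-beta, had a median of 132 RPKM (98.2 to 171), and Sparc, a collagen-binding glycoprotein, one of 100.4 RPKM (53.3 to 162). Col16a1, a fibril-associated collagen, had 37.5 RPKM (27.6 to 56.0) and Bgn, biglycan, 31.7 RPKM (15.1 to 50.8). The other matricellular genes were lower, at medians of 21.02 RPKM for Fstl1, 18.9 RPKM for Postn, which encodes periostin, 15.8 RPKM for Tnc, which encodes tenascin C, and 9.07 RPKM for Thbs2. Collagen VI, which forms beaded filaments from 3 different chains, was represented by Col6a1 at 17.3, Col6a2 at 7.75 and Col6a3 at 6.78 RPKM (medians). The lysyl oxidases had medians of 6.74 RPKM for Loxl1, 6.53 RPKM for Lox and 2.82 RPKM for Loxl2. The stromal cell surface genes were among the lowest, with 4.89 RPKM for Pdgfrb, a receptor of pericytes and fibroblasts, 2.32 RPKM for Pdgfra, a fibroblast receptor, and 0.742 RPKM for Fap, a protease of activated fibroblasts. The count of Col18a1 may include reads of Slc19a1, which overlaps it and had 95.02% of its median count, and that of Vcan reads of Gm4117 (37.7%), since the strand setting of the counting is not stated. Another 14 of the 40 genes overlapped an annotated gene with at most 5.47% of their count.

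The tumors differed widely in these genes. The highest tumor exceeded the lowest by 1.74-fold for Thbs1 to 7.499-fold for Eln, which encodes elastin, with a median of 3.11-fold over the 40 genes, and 23 of them varied over 3-fold. Eln ran from 3.82 RPKM in Hi 11 to 28.7 RPKM in Hi 3, and Lum, the fibril-spacing proteoglycan lumican, from 2.37 RPKM in Lo 3 to 16.6 RPKM in Lo 4. The biological coefficient of variation estimated by edgeR within Lo and Hi had a median of 0.272 over the 40 genes and 0.180 over all genes kept. It lay above the trend for genes of like level in 39 of the 40, as in 24.9% of all genes. A pair of Lo tumors set most of the extremes. Lo 4 was the highest tumor for 29 of the 40 genes and Lo 3 the lowest for 22, while 7.26% of all genes were highest in Lo 4 and 5.79% lowest in Lo 3. Lo 4 also held the second highest summed level of the skeletal muscle genes (545 CPM). Hi 6, which held the highest (939 CPM), was second to Lo 4 for Col1a1, Col1a2 and Col3a1. It was the highest tumor for 0 of the 40 genes. Whether muscle in the pieces bears on these extremes was not tested.

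Did the genes vary together? For each gene Pearson's r over 20 tumors was taken between its log2 CPM and the mean log2 CPM of the 7 fibrillar collagens, leaving a fibrillar collagen out of its own mean. These values are descriptions without a test. The median r was 0.822 over the 40 genes and 0.0150 over the 15401 genes whose mean level reached 1 CPM. Of the 40 genes, 34 had an r over 0.5 and 21 an r over 0.8, as did 4.34% and 0.552% of all these genes. Over the 33 genes other than the fibrillar collagens the median r was 0.793, with 28 over 0.5 and 16 over 0.8. The median r over the 40 genes was 0.703 without Lo 3 and Lo 4, the extreme tumors of this measure, and 0.749 without Hi 6 and Lo 4.

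**Figure D2:**
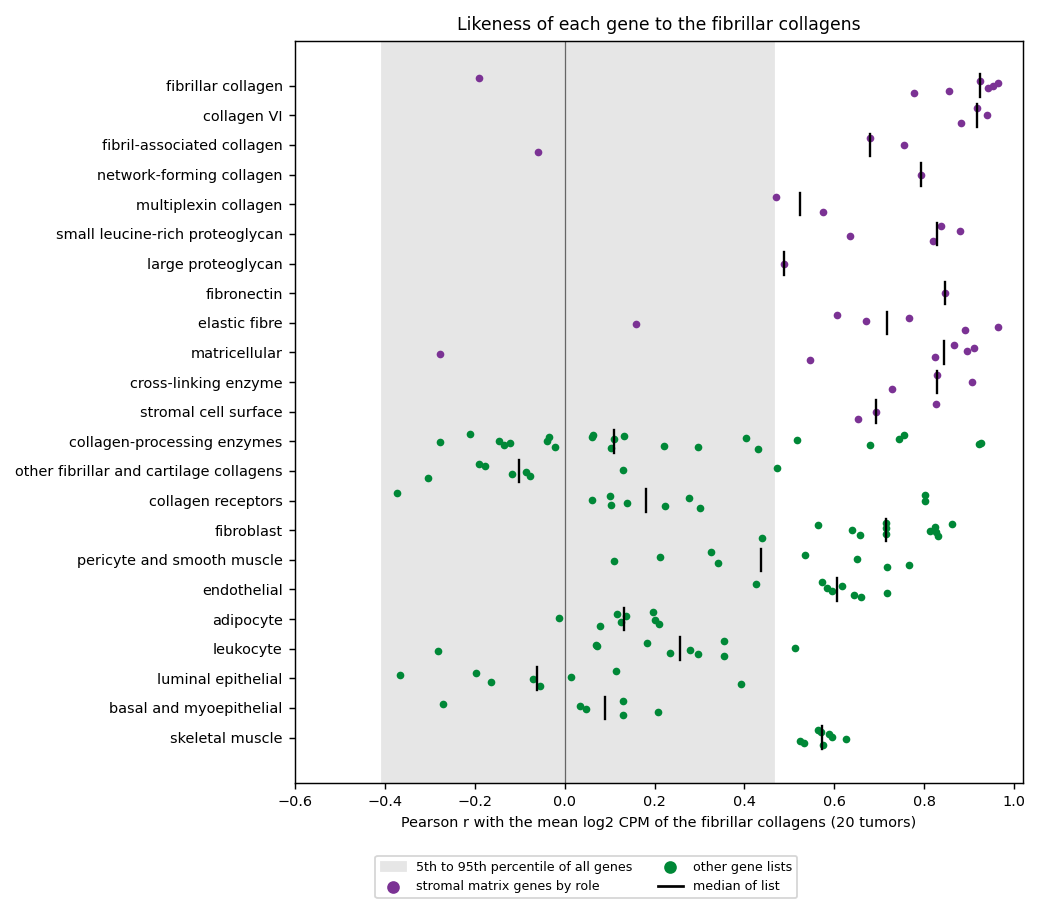
Pearson's r over 20 tumors (horizontal axis) of each gene with the mean log2 CPM of the fibrillar collagens, with genes in rows by list. Purple points are the 40 stromal matrix genes by role, green points other lists, black bars list medians, and the grey band the 5th to 95th percentile of all genes (-0.41 to 0.47). Col11a1, Col16a1 and Thbs1 lie below 0, and the median of the fibroblast list (0.72) lies far above that of the collagen-processing enzymes (0.11).

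Chains of type I, III and V collagen were tested pair by pair. The pairs tested here and below were chosen with earlier results of these data known, so their p-values are not those of a fresh test. Col1a1 and Col1a2, the 2 chains of one protein on different chromosomes, had an r of 0.968 (rho 0.917), with a permutation p of 1e-05, the smallest that 100000 permutations can give, and an adjusted p of 3.86e-05 over the 27 relations tested. The relation held within Lo (r = 0.976) and within Hi tumors (r = 0.965), and without the 2 tumors most distant from the median in Col1a1 (r = 0.953). Such a pair, here called the farthest tumors, was chosen anew for each relation on its x measure (Col1a1 against matrix genes and Serpinh1, the marker, depth or chromosome level where one is named, otherwise the gene named first), and so differs between relations. Col1a1 and Col3a1 had an r of 0.923 (rho 0.860, permutation p = 1e-05, adjusted p = 3.86e-05; r = 0.906 within Lo, 0.962 within Hi and 0.885 without the 2 farthest tumors). Col5a1 and Col5a2, partner chains of type V collagen, had an r of 0.795 (rho 0.636, permutation p = 2e-05, adjusted p = 6.75e-05; r = 0.904 within Lo, 0.711 within Hi and 0.656 without the 2 farthest tumors). Per listed length Col1a1 exceeded Col1a2 by 1.53-fold to 2.04-fold with a median of 1.84-fold, a narrow range beside the 3.44-fold range of Col1a2 itself. The ratio of Col3a1 to Col1a1 was less constant and ran from 0.601 in Lo 1 to 1.18 in Lo 4. These ratios depend on the gene lengths listed in the table.

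The collagen VI chains also moved together. Col6a1 ranged from 9.09 to 28.5 RPKM and Col6a2 from 4.003 to 12.7 RPKM, and the r of these neighbouring genes on chromosome 10 was 0.988 (rho 0.983, permutation p = 1e-05, adjusted p = 3.86e-05; 0.993 within Lo, 0.984 within Hi, 0.981 without the 2 farthest tumors). Their ratio per length stayed between 2.15 and 2.62. Col6a3, on chromosome 1, followed Col6a1 with an r of 0.887 (rho 0.845, permutation p = 1e-05, adjusted p = 3.86e-05; 0.896 within Lo, 0.913 within Hi, 0.828 without the 2 farthest tumors).

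Proteoglycans, elastic fibre genes and cross-linking enzymes largely followed the collagens. Fbn1, fibrillin 1, the scaffold of elastic microfibrils, had an r of 0.965 with the fibrillar collagens, the highest of the 33 other genes. Col1a2 had 0.964, though against a mean that left it out. Mfap5, a further microfibril protein, had 0.890. Dcn, decorin, had 0.879, Bgn 0.838, Lum 0.821 and Fmod, fibromodulin, 0.636. Dcn and Lum, adjacent proteoglycan genes on chromosome 10, correlated at r = 0.874 (rho 0.716, permutation p = 1e-05, adjusted p = 3.86e-05; 0.887 within Lo, 0.857 within Hi, 0.795 without the 2 farthest tumors). Among the lysyl oxidases Loxl1 had 0.906, Lox 0.828 and Loxl2 0.728. Lox and Col1a1 correlated at r = 0.762 (rho 0.773, permutation p = 0.00011, adjusted p = 0.000297; 0.756 within Lo, 0.784 within Hi, 0.799 without the 2 farthest tumors). Fn1, fibronectin, had 0.847, and Postn, Sparc, Fstl1 and Thbs2 had 0.824 to 0.911. Sparc and Col1a1 correlated at r = 0.890 (rho 0.845, permutation p = 1e-05, adjusted p = 3.86e-05; 0.935 within Lo, 0.884 within Hi, 0.867 without the 2 farthest tumors).

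Elastin was a looser member. Eln had an r of 0.606 with the fibrillar collagens, and its relation to Fbn1 (r = 0.544, rho 0.495, permutation p = 0.0134, adjusted p = 0.0227) fell to r = 0.404 without the 2 tumors farthest in Fbn1 and then missed the threshold. Fbln5, fibulin 5, which binds elastin to cells, had an r of 0.16, the sign of which turned without Lo 3 and Lo 4 (-0.22). Col15a1 (0.471), a basement membrane collagen, and Vcan (0.488), the large proteoglycan versican, lay just under 0.5, and Tnc (0.547) and Col18a1 (0.576), the source of endostatin, just over it.

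**Figure D3:**
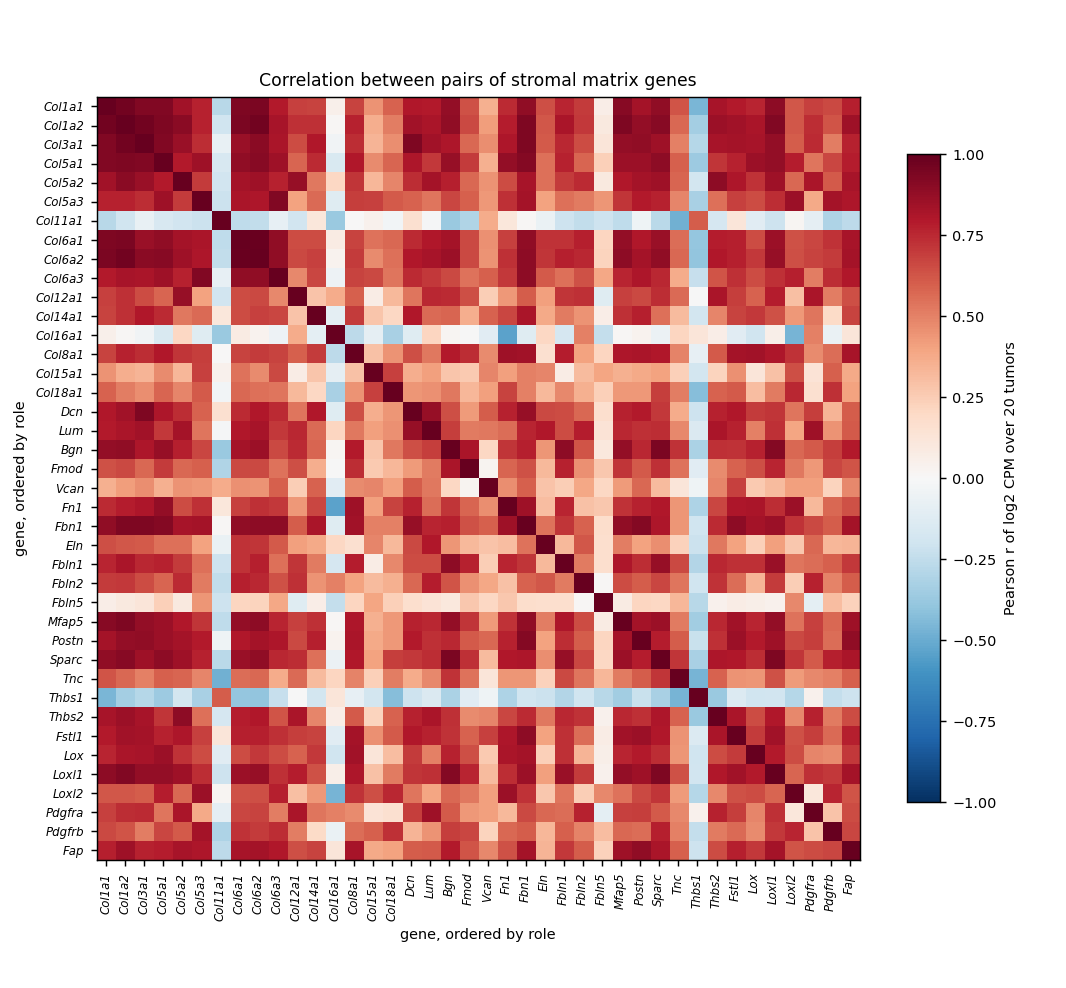
Pearson's r of log2 CPM over 20 tumors for every pair of the 40 genes, ordered by role on both axes, from blue (-1) through white (0) to red (1). The median over 780 pairs was 0.62, and the pale or blue rows and columns are Col11a1, Col16a1, Fbln5 and Thbs1.

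Over the 780 pairs that the 40 genes form, the median r was 0.621, and 64.5% of pairs exceeded 0.5, against a median of -0.001 and a share of 5.20% over pairs of these 15401 genes. Pairs share genes and libraries and are not independent. The grid of pairwise correlations shows Col11a1, Col16a1, Fbln5 and Thbs1 apart from the rest, and Thbs1 and Col11a1 are the most abundant genes of the list per length.

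Col11a1 (ENSMUSG00000027966, chr3:114030540-114220718) did not follow the other fibrillar collagens. It ranged from 80.3 RPKM in Lo 1 to 157 in Lo tumors (median 124) and from 99.2 to 185 RPKM in Hi tumors (median 125), with the highest value in Hi 4. Lo 3, the lowest tumor for most of the other genes, had the highest Col11a1 of the Lo tumors, as the plot against Col1a1 shows. Its r with the mean of the other 6 fibrillar collagens was -0.19, and that with Col1a1 -0.28. Its r with the fibrillar collagens stayed negative under every setting tried for this measure, from -0.17 to -0.30. Of the cartilage collagens, Col9a1, a chain of type IX collagen, had an r of 0.70 with Col11a1 and Col11a2, its partner chain in type XI collagen, one of 0.46. The other type IX chains had 0.37 (Col9a2) and 0.03 (Col9a3), Col2a1, the main collagen of cartilage, had 0.27, and Col27a1 had -0.01. These genes were well expressed in the tumors, with Col9a1 at 1295 to 2231 CPM, Col11a2 at 58.4 to 433 CPM and Col2a1 at 31.0 to 225 CPM. The list of 8 other fibrillar and cartilage collagens had a median r of -0.10 with the fibrillar collagens, and none exceeded 0.5. Epithelial Krt8 (-0.14) and Epcam (0.14), endothelial Pecam1 (-0.29) and the fibroblast receptor Pdgfra (-0.09) had weak values with Col11a1. The genes nearest to Col11a1 lay above all of these and are not collagens: Tbc1d8b (0.90), Gsk3b (0.87), Slc5a3 (0.84), Maged2 (0.84) and Lrp6 (0.84). No share over all genes was taken for r with Col11a1.

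**Figure D4:**
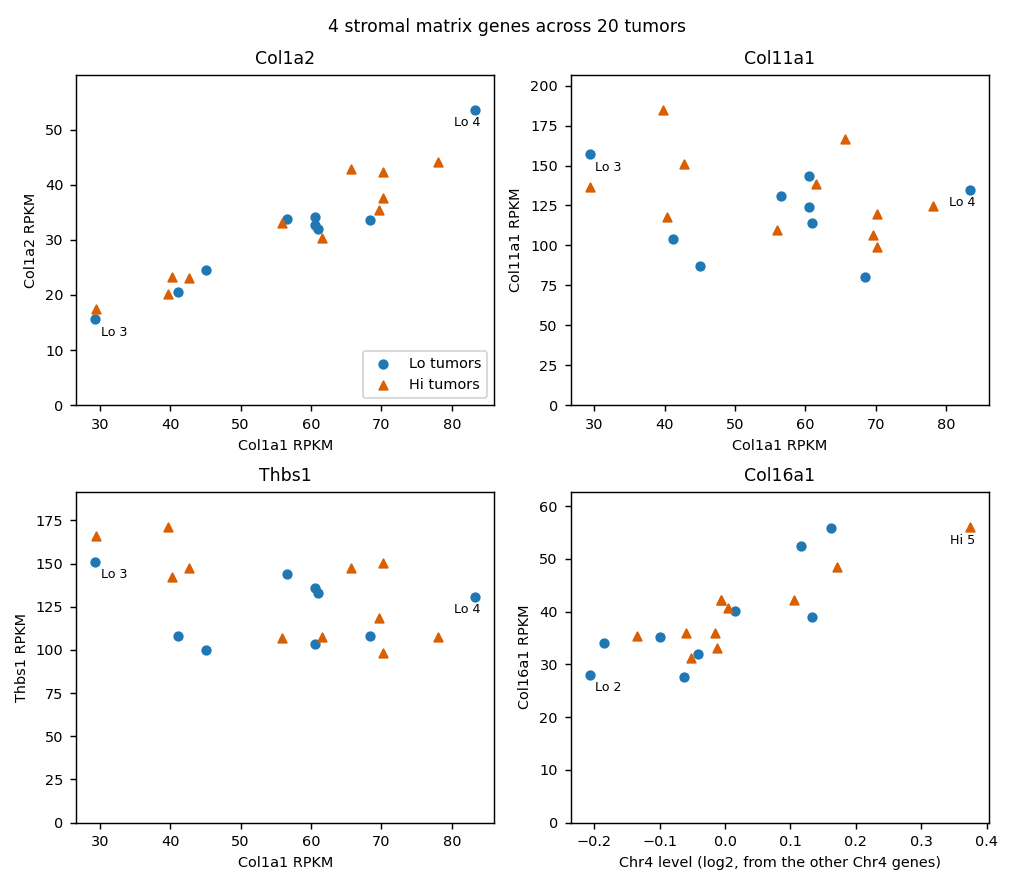
Levels of 4 genes in 20 tumors as RPKM, with Col1a2, Col11a1 and Thbs1 against Col1a1 RPKM, and Col16a1 against the level of the other genes of chromosome 4 on a log2 scale. Circles are Lo and triangles Hi tumors. Col1a2 rises with Col1a1 from Lo 3 to Lo 4, Col11a1 and Thbs1 do not, and Col16a1 rises with the chromosome 4 level.

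The 250 bases before the start of Col3a1 (chr1:45311288-45311537) and Col11a1 (chr3:114030290-114030539), both on the plus strand of GRCm38.p6 as given by RefSeq, are shown as 1 gene that followed the shared variation and 1 that did not. Capitals mark matches on either strand to GGGCGG (the GC box), CCAAT (the CCAAT box) and TATAAA (the TATA box), and no matches overlapped in these windows.
Col3a1: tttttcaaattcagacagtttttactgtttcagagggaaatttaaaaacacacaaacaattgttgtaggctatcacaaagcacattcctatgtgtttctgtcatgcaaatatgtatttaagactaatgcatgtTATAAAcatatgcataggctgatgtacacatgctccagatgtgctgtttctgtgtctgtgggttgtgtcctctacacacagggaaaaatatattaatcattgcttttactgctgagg
Col11a1: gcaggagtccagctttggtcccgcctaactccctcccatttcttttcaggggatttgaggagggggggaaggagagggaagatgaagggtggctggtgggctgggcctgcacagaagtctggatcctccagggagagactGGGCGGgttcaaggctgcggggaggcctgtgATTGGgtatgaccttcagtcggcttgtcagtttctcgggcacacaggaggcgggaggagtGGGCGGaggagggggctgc
The Col3a1 window held 1 match to TATAAA and none to the other motifs, and the Col11a1 window held 2 matches to GGGCGG and 1 to CCAAT. Of the 25 stromal matrix genes with a sequence in the RefSeq promoter table, 16 held GGGCGG, 8 CCAAT and 4 TATAAA in these 250 bases of any listed promoter. Over all 32851 single promoters the shares were 32.7%, 33.8% and 12.4%. Genes with several promoters have more chances of a match, so counts by gene and shares by promoter are not like for like. A match of letters is a description and not a binding site.

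Thbs1 (ENSMUSG00000040152, chr2:118111876-118127133) was the most abundant gene of the list per length and the one that varied least. It ranged from 100.03 to 151 RPKM in Lo (median 131) and from 98.2 to 171 RPKM in Hi tumors (median 142). Its r with the fibrillar collagens was -0.28, the lowest of the 40 genes, and was negative under every setting tried, while that with Col11a1 was 0.61. Its paralogue Thbs2, which followed the collagens (0.824), ranged from 5.19 to 17.1 RPKM, and Thbs1 and Thbs2 had an r of -0.37 (rho -0.39, permutation p = 0.108, adjusted p = 0.171; -0.09 within Lo, -0.62 within Hi and -0.40 without the 2 farthest tumors). This relation did not pass the threshold.

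Col16a1 (ENSMUSG00000040690, chr4:130047840-130099283) correlated with the RNA level of its chromosome and hardly with the fibrillar collagens. It ranged from 27.6 to 55.8 RPKM in Lo tumors (median 35.2) and from 31.1 to 56.0 RPKM in Hi tumors (median 40.7), and was highest in Hi 5 and Lo 7. Its r with the fibrillar collagens was -0.06, which turned slightly positive with RPKM from unscaled totals (0.14), without the ribosomal RNA locus (0.02) or against Col1a1, Col1a2 and Col3a1 alone (0.0045). The level of chromosome 4 was taken as the median log2 CPM of 736 other genes of that chromosome, each relative to its median tumor, minus the same over all autosomes. It ran from -0.21 in Lo 2 to 0.37 in Hi 5. Col16a1 correlated with it at r = 0.825 (rho 0.833, permutation p = 3e-05, adjusted p = 9e-05), at 0.811 within Lo, 0.862 within Hi and 0.752 without the 2 farthest tumors. This is common on chromosome 4, where the median r of the 736 genes was 0.611 and 11.8% had an r at least as high as Col16a1. The 2 other genes of the list on this chromosome did not pass the threshold, Tnc with r = 0.328 (rho 0.362, permutation p = 0.157, adjusted p = 0.224; 0.858 within Lo, -0.06 within Hi, 0.421 without the 2 farthest tumors) and Col15a1 with r = -0.12 (rho -0.20, permutation p = 0.610, adjusted p = 0.686; 0.116 within Lo, -0.28 within Hi, 0.0681 without the 2 farthest tumors).

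Which other genes moved with the collagens? Of 23 enzymes and chaperones that fold, modify and trim procollagen, 6 had an r over 0.5 and the median was 0.108. P4ha3, a prolyl 4-hydroxylase subunit, had 0.927 and Pcolce, the enhancer of procollagen C-proteinase, 0.923, the highest values outside the list among genes that reached a mean of 1 CPM. Adamts2, the procollagen N-proteinase, had 0.756, P3h1, a prolyl 3-hydroxylase, 0.745, Pcolce2 0.680 and P3h3 0.516. Much more abundant members did not follow. Serpinh1, the collagen chaperone HSP47, stood at 306 to 492 CPM and had an r of 0.0729 with Col1a1 (rho 0.0677, permutation p = 0.760, adjusted p = 0.789; -0.11 within Lo, 0.247 within Hi, 0.289 without the 2 farthest tumors), and P4hb, protein disulfide isomerase, at 670.4 to 1191 CPM, had -0.12 with the fibrillar collagens. Further genes nearest to the fibrillar collagens were Medag (0.918), Cilp (0.910), Srpx (0.904), Gm13372 (0.897), Thbd (0.895), Bicc1 (0.891), Igf1 (0.885) and Emilin1 (0.885). Gm13372 overlaps Col5a1, and its reads cannot be separated from those of Col5a1 here. The lowest values were those of Gm15567 (-0.76), Isoc2b (-0.71) and Gm26550 (-0.71).

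Cell type markers differed in how far they went with the collagens. All 12 fibroblast markers had a positive r (0.440 to 0.862), led by Cd34 (0.862), Thy1 (0.832) and Pi16 (0.826), which fibroblasts express among other cells, with a summed level of 297 to 606 CPM. All 8 endothelial markers were positive (0.425 to 0.718). Pericyte and smooth muscle markers had a median of 0.438, leukocyte markers of 0.257, adipocyte markers of 0.132, basal and myoepithelial markers of 0.0885 and luminal epithelial markers of -0.06. All 8 skeletal muscle genes had values of 0.524 to 0.625. Of 10 collagen receptors, Itga11 (0.802) and Ddr2 (0.801), both known from fibroblasts, exceeded 0.5, whereas the epithelial collagen receptor Ddr1 had -0.37 and Gp6, the platelet receptor, was near 0 in all tumors.

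Single markers were also tested against Col1a1. Pdgfra correlated with Col1a1 at r = 0.680 (rho 0.666, permutation p = 0.00082, adjusted p = 0.0017; 0.816 within Lo, 0.596 within Hi, 0.565 without the 2 farthest tumors) and Pdgfrb at r = 0.659 (rho 0.633, permutation p = 0.0016, adjusted p = 0.00309; 0.744 within Lo, 0.602 within Hi, 0.538 without the 2 farthest tumors). Pdgfra missed the threshold without Lo 3 and Lo 4 (r = 0.514). The 2 receptors correlated at r = 0.282 with each other (rho 0.233, permutation p = 0.228, adjusted p = 0.293; 0.391 within Lo, 0.264 within Hi, 0.302 without the 2 farthest tumors), which did not pass. Pecam1, the endothelial adhesion molecule CD31, had r = 0.706 with Col1a1 (rho 0.632, permutation p = 0.00055, adjusted p = 0.00124; 0.745 within Lo, 0.711 within Hi, 0.558 without the 2 farthest tumors). Its r with Col18a1, a collagen of vascular basement membranes, was 0.606 (rho 0.611, permutation p = 0.00436, adjusted p = 0.00785; 0.678 within Lo, 0.613 within Hi), and missed the threshold without the 2 farthest tumors (0.489). Ptprc, the pan-leukocyte marker CD45, had r = 0.288 (rho 0.377, permutation p = 0.218, adjusted p = 0.293; 0.703 within Lo, -0.03 within Hi, 0.288 without the 2 farthest tumors), and Krt8 had -0.08 (rho -0.10, permutation p = 0.731, adjusted p = 0.789; -0.04 within Lo, -0.11 within Hi, -0.08 without the 2 farthest tumors). Tgfb1, whose product induces collagen genes in fibroblasts, had r = 0.142 with Col1a1 (rho 0.0451, permutation p = 0.548, adjusted p = 0.643; 0.178 within Lo, 0.117 within Hi, 0.0310 without the 2 farthest tumors).

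Neither sequencing depth nor ribosomal RNA passed the test with Col1a1. The r of Col1a1 with the total count was -0.34 (rho -0.28, permutation p = 0.137, adjusted p = 0.206; -0.32 within Lo, -0.38 within Hi, -0.45 without the 2 farthest tumors), and that with the ribosomal share -0.03 (rho -0.06, permutation p = 0.888, adjusted p = 0.888; -0.09 within Lo, 0.0445 within Hi, 0.0323 without the 2 farthest tumors). In all, 16 of the 27 relations passed an adjusted p of 0.05, both by r and by rho. The relations were chosen with earlier results of these data known, so these counts describe the tumors and are no independent test. By r, 16 passed without Hi 6 and Lo 4, 14 without the 2 farthest tumors and 13 without Lo 3 and Lo 4. By rho, 14 passed without Hi 6 and Lo 4, and 11 in each of the other 2 cases.

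Did Lo and Hi tumors differ in these genes? Col1a1 ranged from 29.3 RPKM through a median of 60.5 to 83.3 RPKM in Lo and from 29.4 through 61.6 to 78.1 RPKM in Hi tumors, and Lo and Hi overlapped almost entirely. Its log2 fold change, Hi minus Lo, was 0.01 ± 0.18 (SE), with a 95% interval of -0.36 to 0.39. None of the 40 genes was called by edgeR's quasi-likelihood test (0 of 40), and the background was 0% of 18883 genes called. At an unadjusted p under 0.05 there were 0 of the 40 genes against 5.53% of all genes, and DESeq2 also called 0 of the 40. Lo and Hi tumors overlapped in all 40 genes. No share over all genes was taken for this overlap, so it sets the 40 genes apart from no others.

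**Figure D5:**
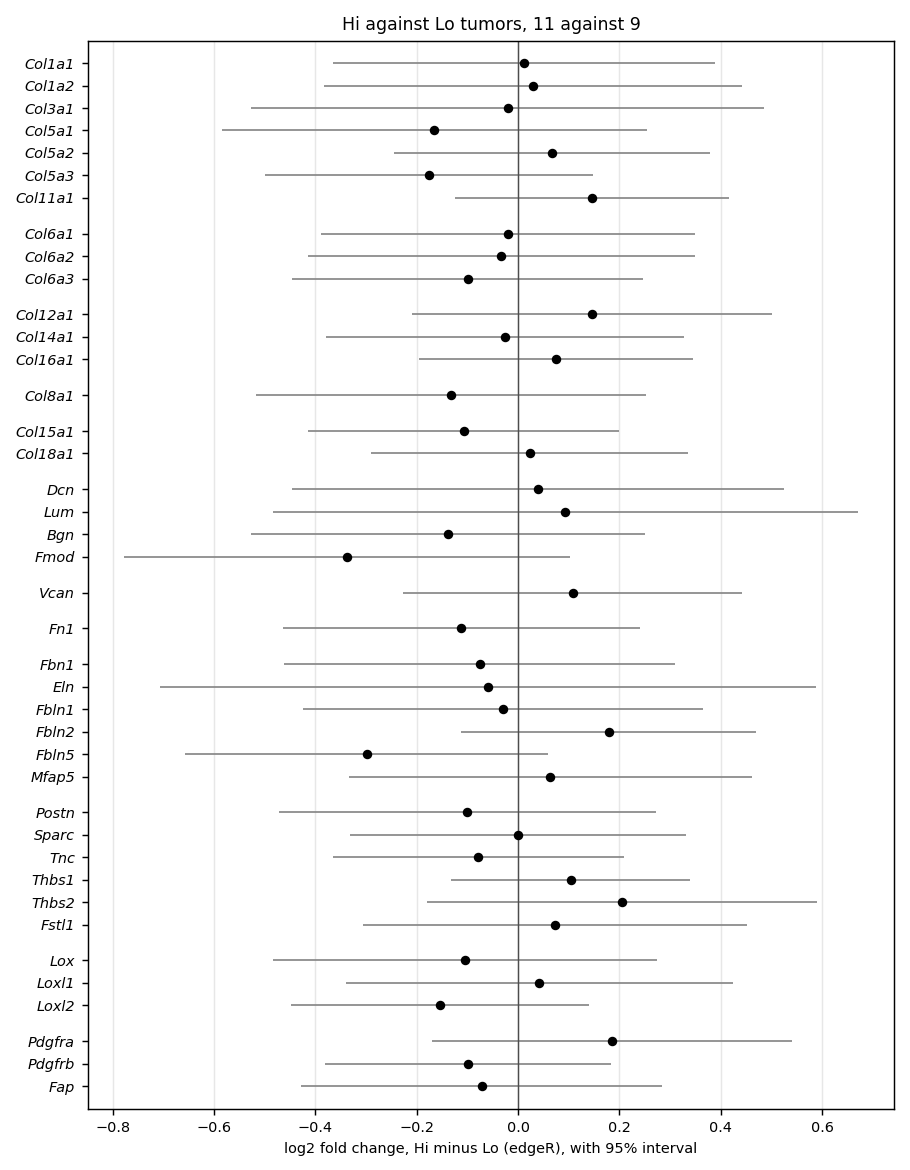
Log2 fold change, Hi minus Lo, of the 40 genes (rows, grouped by role) from edgeR, 11 Hi against 9 Lo tumors. Points are estimates and lines 95% intervals, all of which include 0. Fmod (-0.34) is lowest and Thbs2 (0.21) highest.

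The largest difference downward was that of Fmod, which ranged from 1.001 to 3.93 RPKM in Lo (median 2.13) and from 1.18 to 2.48 RPKM in Hi tumors (median 1.81). Its log2 fold change was -0.34 ± 0.21 (SE) with a 95% interval of -0.78 to 0.10. Fbln5 followed with -0.30 ± 0.17 (SE), from 5.73 to 13.3 RPKM in Lo (median 8.21) and 4.91 to 10.3 RPKM in Hi tumors (median 7.46). The largest upward was that of Thbs2, from 5.19 to 14.5 RPKM in Lo (median 8.603) and 5.83 to 17.1 RPKM in Hi tumors (median 9.63), at 0.21 ± 0.18 (SE) with an interval of -0.18 to 0.59. All adjusted p-values of the 40 genes were 0.984 or higher in edgeR's test. Of the 40 estimates 18 were above 0 and 22 below it, with a median of -0.02 (-0.00 over all genes). Without Hi 6 and Lo 4, 29 were above 0 and 11 below it, the median was 0.06 (-0.00018 over all genes), and again none was called. Lo 4 was the highest tumor for 29 of the 40 genes, so leaving it out lowers the Lo mean of most of them. The genes also varied together, so these counts are not of independent genes. The precision differed between genes, with the smallest SE for Thbs1 (0.11, interval -0.13 to 0.34) and the largest for Eln (0.31, interval -0.71 to 0.59). Of the 23 collagen-processing enzymes, 0 were called.

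Ratios within a tumor do not depend on how libraries are scaled, and 10 of them were compared between Lo and Hi tumors by exact permutation. The ratio of Col1a1 to Col1a2 was 1.84 ± 0.153 (SD, n = 9) in Lo and 1.80 ± 0.153 (SD, n = 11) in Hi tumors, with a two-sided exact permutation p of 0.560 and an adjusted p of 0.835. The ratio of Col5a1 to Col5a2 was 0.484 ± 0.0908 (SD, n = 9) in Lo and 0.422 ± 0.0946 (SD, n = 11) in Hi tumors (exact permutation p = 0.127, adjusted p = 0.764). That of Pdgfra to Pdgfrb, which ran from 0.236 in Lo 8 to 0.804 in Hi 3, was 0.432 ± 0.140 (SD, n = 9) in Lo and 0.524 ± 0.151 (SD, n = 11) in Hi tumors (exact permutation p = 0.153, adjusted p = 0.764). None of the 10 ratios passed the threshold, before or after adjustment.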

How the data were processed

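Total RNA from 20 tumors was sequenced after TruSeq mRNA preparation. After trimming to 100 bases, reads were aligned by TopHat2 2.0.12 to mm10, and featureCounts 1.4.4 is named in the submitters' processing notes. The deposited values are the authors' raw read counts for each gene, 1 column per tumor with no pooling. Strand setting and annotation release are not given in the sources used here, so overlapping genes are uncertain.

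Lo and Hi were taken from the sample titles. The table was fitted whole with edgeR 4.0.16 (filterByExpr, TMM, glmQLFit and glmQLFTest, Benjamini-Hochberg at 0.05) in R 4.3.3, with DESeq2 1.42.0 as an alternative. Log2 CPM used a prior count of 2, and RPKM used the lengths listed in the table. Correlations used 100000 two-sided permutations, and ratios all 167960 regroupings. Each tumor came from a separate mouse. Other steps used scipy 1.17.1, pandas 2.3.3 and numpy 2.4.6 under Python 3.11.15, and the fits were tested on simulated data. Named were the 40 genes, listed markers and pairs, and the 10 nearest and 3 farthest other genes by r with the fibrillar collagens. Genes nearest to Col11a1 were added after its values were seen. The genes, lists and pairs were chosen with earlier results of these data known. P3h1 to P3h4 were matched by gene ID. The labels do not say whether replicate numbers in the titles pair the tumors, and the main tests left them unpaired. Deviations of same-numbered Lo and Hi tumors correlated above 0.1 in 3 of 9 pairs (-0.42 to 0.208). Tumors of different numbers were not compared in this way, so these values do not settle the matter. Alternatives were other scalings, no filter, a replicate block and leaving out tumors. Gene structure came from GENCODE M21 and promoters from RefSeq (GRCm38.p6).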

Additional observations from a re-analysis of the deposited data

How the results depend on the processing

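None of the 40 genes was called in the Lo against Hi comparison under upper-quartile scaling, without the filter, without the ribosomal RNA locus, with DESeq2, with the replicate block, without Hi 6 or without Hi 6 and Lo 4. Over all genes, 0 were called by edgeR, 1 without the filter on low counts (Mir7671) and 4 by DESeq2 (Cd163l1, Mir7671, Serpina3g and Mospd4), none of them among the 40. With the replicate number as a block over 18 tumors, 0 genes were called and 23 of the 40 estimates were above 0, against 18 without the block over the same tumors. The median r with the fibrillar collagens fell from 0.822 to 0.703 without Lo 3 and Lo 4, the 2 tumors farthest from the median. It was 0.764 to 0.839 on leaving out 1 tumor at a time (jackknife SE 0.0743). The count of genes above the trend of spread was 39, and 40 by both alternatives. Single relations that then missed the threshold were Fbn1 with Eln (0.404 without the 2 farthest tumors, 0.475 without Lo 3 and Lo 4), Pecam1 with Col18a1 (0.489 in both cases) and Pdgfra with Col1a1 (0.514). Settings that leave out named tumors were chosen after seeing the data, as were, for the r with the fibrillar collagens, DESeq2 size factors, totals without the ribosomal RNA locus and the mean of 3 collagens. All 40 genes passed the filter on low counts, with the lowest level that of Fap (0.467 to 1.38 RPKM).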
